A study of Mus musculus with 9 samples.

Results

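The endothelium of the liver was followed through 10 of its marker genes, compared across 3 genotypes: Stab1, Stab2, Lyve1, Clec4g and Fcgr2b as sinusoidal markers, and Cd34, Plvap, Vwf, Kdr and Tek as markers of vascular endothelium at large. The 10 genes, of 19938 genes with a probe set of their own, were taken by symbol from the platform annotation, and each was read from its brightest probe set over all 9 arrays. Clec4g has 2 probe sets and each other gene has 1. RNA came from whole livers of male C57/BL6 mice aged 8 to 9 weeks on standard chow, with 3 arrays in each group. One group was wild type, another lacked NEMO in hepatocytes only (NEMOΔhepa), and the last was NEMOΔhepa crossed with constitutive p21-/- mice.

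In the knockouts the deletion of NEMO (gene Ikbkg), a regulatory protein that activates NF-κB signalling, was confined to hepatocytes, so endothelial cells of the NEMO knockout are labelled as carrying intact NEMO. In the cross, p21, a cyclin-dependent kinase inhibitor encoded by Cdkn1a, is labelled as missing from endothelial cells too. The Cre line is not given in the sources used here, and no group lacked p21 alone. Ikbkg was lower in both knockout groups, by 0.52 and by 0.60 on the log2 scale (limma adjusted p = 0.0184 and 0.00835). The probe set annotated jointly to 4930567H12Rik;Cdkn1a was 2.11 above wild type in the cross (limma adjusted p = 0.0194), against the label, so that group is called the labelled double knockout and each direction given for it rests on the label. Probe positions on this gene were not used here, so its signal checks the label only as far as the probes fall in what was deleted. The labelled tissue was checked on 9 hepatocyte markers, whose group means lay between 10.81 and 13.8 (log2).

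Liver sinusoids are lined by a fenestrated endothelium without an organised basement membrane, which clears macromolecules and immune complexes from portal blood through scavenger and Fc receptors. Endothelium of larger vessels and ordinary capillaries carries CD34 and von Willebrand factor. In chronic liver injury sinusoidal cells can lose fenestrae and take on such capillary features, a change called capillarisation. VEGF, acting through its receptor encoded by Kdr, and angiopoietins, acting through Tie2 encoded by Tek, maintain both kinds of vessel.

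Among the 10 markers the data show a rise in Cd34 in both knockout groups, a rise in Plvap in the labelled double knockout, and no call for the other 8 genes. Plvap was also 0.35 above wild type in the NEMO knockout, without a call, and a difference between the knockout groups is not shown. Its call in the labelled double knockout ended when any of 4 single arrays was left out. In the NEMO knockout 1 of the 10 genes was called higher than wild type and none lower, at a limma adjusted p under 0.05 over all 28939 probe sets tested. In that comparison 7.68% of all probe sets were called, 5.66% higher and 2.02% lower, so the share of markers called is close to that background. The median difference of the 10 markers was 0.0095 (log2), beside -0.04 for all probe sets. For the labelled double knockout against wild type 2 of 10 were called higher and none lower, where 9.32% of all probe sets were called, 5.81% higher and 3.51% lower. The median difference there was 0.013, beside -0.03 for all probe sets. Between the knockout groups none of the 10 passed the limma test, where 0.197% of probe sets did (0.0864% higher and 0.111% lower), and 1 of the 10, Lyve1, had an unadjusted p under 0.05, as did 7.46% of all probe sets, so that count is near its background. Against wild type the share of all probe sets at that unadjusted threshold was 20.3% for the NEMO knockout and 21% for the labelled double knockout. Between the knockout groups the median difference of the 10 markers was -0.020, beside 0.0033 for all probe sets. Both comparisons against wild type share the same 3 wild type arrays.

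Sequences before a RefSeq start site (GRCm38.p6) were found for 7 of the 10 genes and not for Lyve1, Plvap or Vwf. That start site is not always the outer end of the annotated gene. The Kdr window lies inside the annotated gene, and the windows of Stab1, Stab2, Clec4g and Tek reach partly into theirs. The ETS core AGGAAG, read on both strands, is shown because ETS factors are known drivers of endothelial transcription. It occurred in the 250 bases before the RefSeq start site for 4 of the 7 genes, and in 29.5% of all 32851 promoters of that length. The 4 sequences are printed 5′ to 3′ on the strand of the gene, with matches on either strand in capitals. Cd34 is on the plus strand at chr1:194938571-194938820, Stab1 on the minus strand at chr14:31168642-31168891, Stab2 on the minus strand at chr10:87007943-87008192 and Clec4g on the minus strand at chr8:3720652-3720901.
Cd34: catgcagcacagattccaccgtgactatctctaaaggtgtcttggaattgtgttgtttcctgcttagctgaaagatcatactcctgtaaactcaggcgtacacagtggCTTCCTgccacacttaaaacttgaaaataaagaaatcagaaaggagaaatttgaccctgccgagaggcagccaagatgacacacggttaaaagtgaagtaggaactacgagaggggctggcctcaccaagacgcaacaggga
Stab1: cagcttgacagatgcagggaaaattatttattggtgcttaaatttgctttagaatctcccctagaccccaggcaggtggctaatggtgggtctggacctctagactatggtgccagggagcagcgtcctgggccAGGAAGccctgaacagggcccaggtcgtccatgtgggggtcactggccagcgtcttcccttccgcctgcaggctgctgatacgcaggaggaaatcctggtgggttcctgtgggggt
Stab2: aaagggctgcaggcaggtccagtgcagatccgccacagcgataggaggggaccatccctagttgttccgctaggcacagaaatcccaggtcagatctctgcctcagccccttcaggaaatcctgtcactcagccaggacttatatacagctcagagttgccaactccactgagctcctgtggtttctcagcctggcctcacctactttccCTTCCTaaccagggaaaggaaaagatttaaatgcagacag
Clec4g: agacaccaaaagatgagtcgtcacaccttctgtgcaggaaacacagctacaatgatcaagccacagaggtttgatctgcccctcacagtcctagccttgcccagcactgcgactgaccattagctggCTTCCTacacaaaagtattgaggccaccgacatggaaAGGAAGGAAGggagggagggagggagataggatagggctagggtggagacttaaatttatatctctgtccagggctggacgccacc
Cd34, which rose, and Stab1 and Stab2, which were not called, each hold 1 match, and Clec4g holds 3, of which 2 overlap. The GATA letters AGATAA or TGATAA were in none of the 7 windows and in 16.6% of all promoters, and the KLF letters CCACCC in 3 of the 7 and in 28.1% of all. The Stab2 match falls in the part of its window that lies inside the annotated gene. A match is a description of the letters only.

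**Figure D1:**
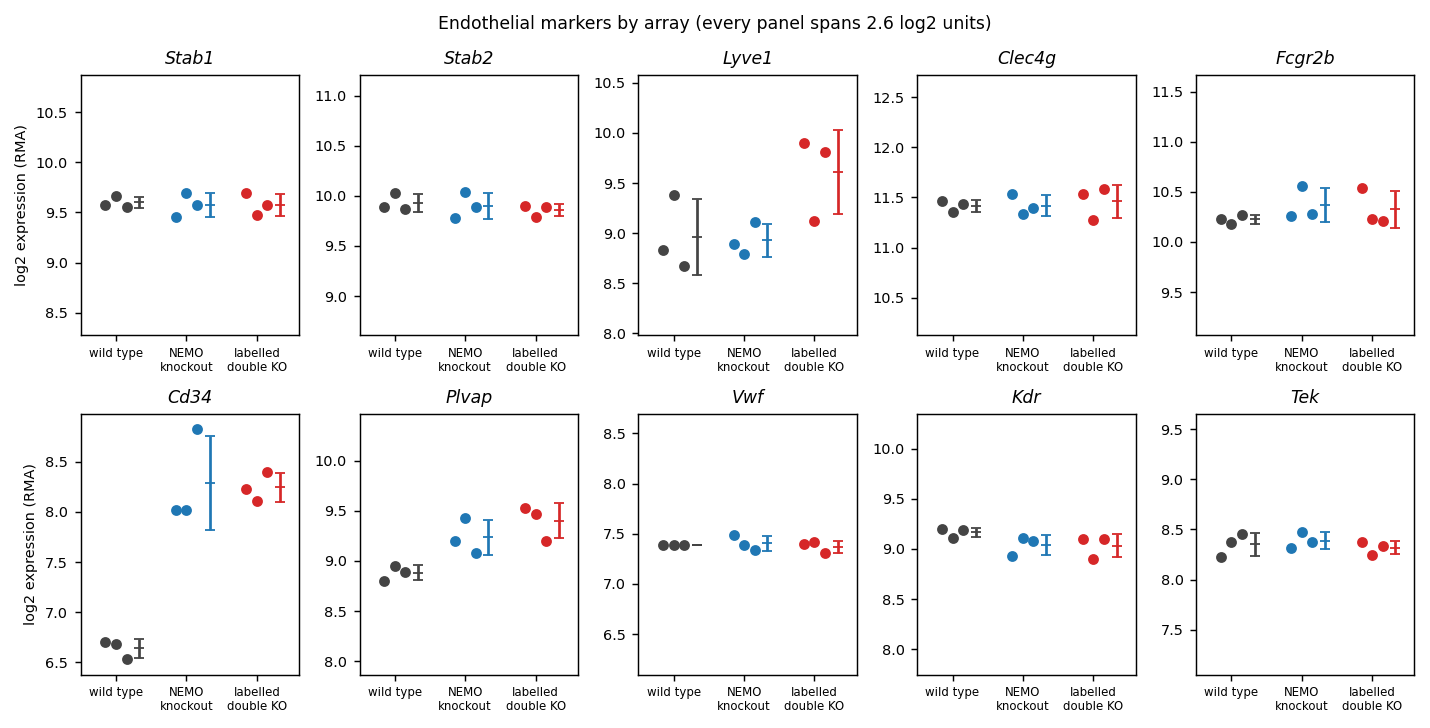
Log2 expression (RMA) of the 10 markers in each array, 1 panel per gene, with the 3 arrays of a group as points and the group mean ± SD (n = 3) beside them; every panel spans the same 2.6 log2 units. All 6 knockout arrays lie above the wild type arrays for Cd34 and Plvap, while the groups of the other genes mostly share a range.

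Stab1 and Stab2 encode stabilin-1 and stabilin-2, scavenger receptors of sinusoidal endothelium that bind hyaluronan and modified lipoproteins. Stab1 read 9.58, 9.67 and 9.56 in wild type, 9.46, 9.70 and 9.57 in the NEMO knockout, and 9.69, 9.47 and 9.58 in the labelled double knockout (log2, replicates 1 to 3). The 3 groups overlapped. The NEMO knockout differed from wild type by -0.03 ± 0.08 (SE, n = 3 per group; limma's 95% interval -0.21 to 0.16, adjusted p = 0.902). Stab2 read 9.89, 10.03 and 9.87 in wild type, 9.78, 10.04 and 9.89 in the NEMO knockout, and 9.90, 9.79 and 9.89 in the labelled double knockout. Its differences from wild type were -0.02 ± 0.08 (interval -0.21 to 0.16, limma adjusted p = 0.906) and -0.07 ± 0.08 (interval -0.25 to 0.12, limma adjusted p = 0.740). In wild type and in the NEMO knockout replicate 2 was the highest array for both genes, and in the labelled double knockout replicate 2 was the lowest for both.

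Clec4g encodes LSECtin, a C-type lectin of sinusoidal endothelium. Its brighter probe set read 11.46, 11.35 and 11.43 in wild type, 11.53, 11.33 and 11.39 in the NEMO knockout, and 11.53, 11.27 and 11.58 in the labelled double knockout. The groups overlapped, with differences from wild type of 0.0037 ± 0.09 (limma's 95% interval -0.21 to 0.21, adjusted p = 0.989) and 0.04 ± 0.09 (interval -0.17 to 0.26, adjusted p = 0.870). The second Clec4g probe set lay between 5.29 and 5.68 in all 9 arrays. On it, the labelled double knockout was below both other groups without overlap, where 13.5% of all probe sets were below wild type and 5.75% below the NEMO knockout in that way. The differences of -0.18 ± 0.08 from wild type (limma adjusted p = 0.207) and -0.14 ± 0.08 from the NEMO knockout (limma adjusted p = 0.742) did not pass.

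Fcgr2b encodes the inhibitory Fc receptor FcγRIIb, through which sinusoidal cells clear small immune complexes, and which B cells and macrophages carry too. It read 10.23, 10.18 and 10.27 in wild type, 10.26, 10.56 and 10.28 in the NEMO knockout, and 10.54, 10.23 and 10.21 in the labelled double knockout. One array of each knockout group stood above the others, and both groups overlapped wild type. The differences from wild type were 0.14 ± 0.11 (limma's 95% interval -0.11 to 0.39, adjusted p = 0.535) and 0.10 ± 0.11 (interval -0.15 to 0.34, adjusted p = 0.716). Fcgr3, a paralog of closely similar extracellular sequence whose transcripts could share signal with this probe set, differed by 0.25 ± 0.12 (adjusted p = 0.287) and 0.45 ± 0.12 (adjusted p = 0.0501) in the same comparisons and was not called. Of 16 macrophage and Kupffer cell markers 13 were called higher in the NEMO knockout, beside 5.66% of all probe sets. The summed linear signal of the 16 ran from 7147 to 7721 in wild type, 12390 to 13770 in the NEMO knockout and 12920 to 13550 in the labelled double knockout. None of 7 B cell markers was called by limma. None had an unadjusted p under 0.05 in the NEMO knockout, and 1 did in the labelled double knockout against wild type, beside 20.3% and 21% of all probe sets. The B cell sums were 375.6 to 449.7, 416.0 to 469.1 and 400.2 to 436.1 in the same order of groups. The part of either cell type in the Fcgr2b signal was not tested.

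Lyve1, a hyaluronan receptor of lymphatic and sinusoidal endothelium that some macrophages also carry, varied most among replicates. It read 8.83, 9.38 and 8.67 in wild type, 8.89, 8.79 and 9.11 in the NEMO knockout, and 9.90, 9.13 and 9.81 in the labelled double knockout. Replicates 1 and 3 of the labelled double knockout were the highest of the 9 arrays, and wild type replicate 2 exceeded its replicate 2. The NEMO knockout differed from wild type by -0.03 ± 0.23 (limma's 95% interval -0.55 to 0.48, adjusted p = 0.958). The labelled double knockout was 0.68 ± 0.23 above the NEMO knockout, without overlap (interval 0.17 to 1.20, unadjusted p = 0.0148, limma adjusted p = 0.514). In that comparison 4.99% of all probe sets lay higher without overlap and 5.75% lower. Against wild type the difference was 0.65 ± 0.23 (interval 0.14 to 1.16, limma adjusted p = 0.129), and without labelled double knockout replicate 2 it was 0.89 and passed (limma adjusted p = 0.0303). Neither Lyve1 difference is therefore a call on all 9 arrays, and neither interval includes 0.

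**Figure D2:**
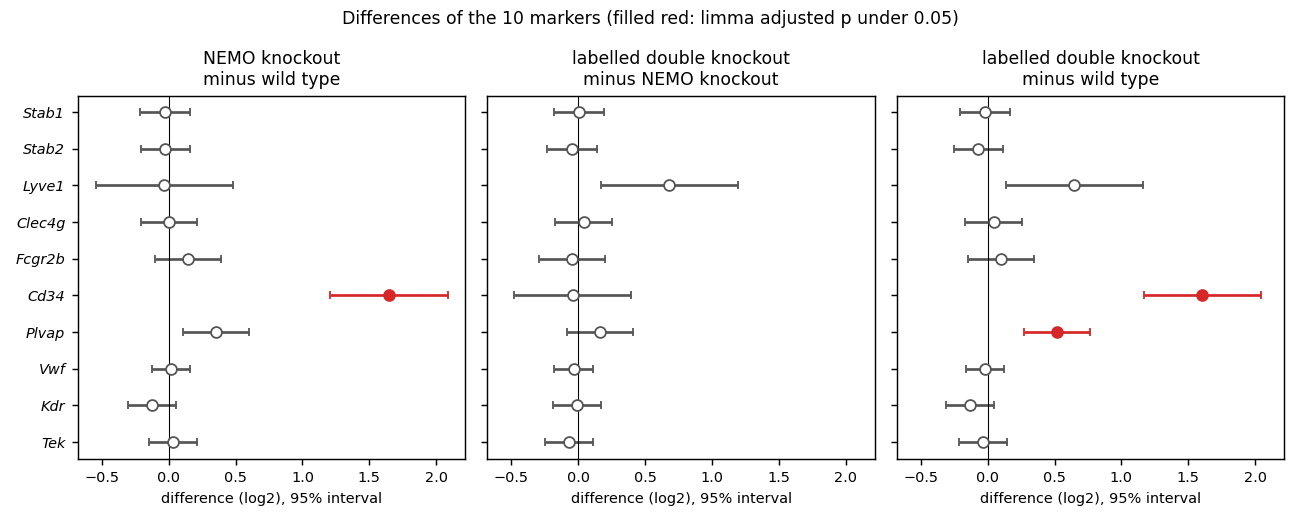
Differences between groups for the 10 markers on the log2 scale (points) with limma's 95% intervals (lines), 1 panel per comparison and 3 arrays per group; filled red points passed the adjusted test. Cd34 stands at 1.65 and 1.61 against wild type and at -0.04 between the knockout groups, and the Lyve1 intervals are the widest.

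Cd34 encodes a surface sialomucin of capillary endothelium, blood-forming progenitors and some fibroblasts. It read 6.70, 6.69 and 6.53 in wild type, 8.02, 8.02 and 8.83 in the NEMO knockout, and 8.23, 8.11 and 8.40 in the labelled double knockout. The lowest knockout array was well above the highest wild type array, and NEMO knockout replicate 3 was the highest of all. Replicates 1 and 2 of the NEMO knockout have the same value, which RMA's median polish can produce. Group means were 6.64 ± 0.09, 8.29 ± 0.47 and 8.25 ± 0.14 (SD, n = 3). Cd34 rose 3.13-fold in the NEMO knockout, by 1.65 ± 0.20 (SE; limma's 95% interval 1.21 to 2.09, adjusted p = 0.00120). In the labelled double knockout it rose 3.04-fold, by 1.61 ± 0.20 (interval 1.17 to 2.05, limma adjusted p = 0.00112). The knockout groups overlapped and differed by -0.04 ± 0.20 (interval -0.48 to 0.40, limma adjusted p = 0.983). Without NEMO knockout replicate 3 the rise over wild type was 1.38, and it was called still.

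Plvap encodes the protein of the diaphragms that span fenestrae and caveolae of capillary endothelium. It read 8.80, 8.95 and 8.89 in wild type, 9.20, 9.43 and 9.08 in the NEMO knockout, and 9.53, 9.46 and 9.20 in the labelled double knockout. Every knockout array was above every wild type array, as were 11.4% of all probe sets for the NEMO knockout and 11.6% for the labelled double knockout. Plvap rose 1.43-fold in the labelled double knockout, by 0.52 ± 0.11 (limma's 95% interval 0.27 to 0.77, adjusted p = 0.0187). The NEMO knockout differed from wild type by 0.35 ± 0.11 (interval 0.11 to 0.60), which did not pass (limma adjusted p = 0.0948). The knockout groups differed by 0.16 ± 0.11 (interval -0.09 to 0.41, limma adjusted p = 0.810), so a difference between them is not shown. Leaving out wild type replicate 1 or replicate 3 ended the call (limma adjusted p = 0.0675 and 0.0584), as did leaving out replicate 1 or replicate 2 of the labelled double knockout (limma adjusted p = 0.0676 and 0.0627), with the difference at 0.45 to 0.62 over the 9 arrays left out in turn.

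Vwf encodes von Willebrand factor, the adhesive protein of larger vessels and of platelets. It read 7.39 in each of the 3 wild type arrays, 7.49, 7.39 and 7.34 in the NEMO knockout, and 7.40, 7.41 and 7.30 in the labelled double knockout. Replicates 1 and 2 of wild type and replicate 2 of the NEMO knockout hold exactly the same value, so the wild type SD of 0.0027 may understate the spread. Differences from wild type were 0.015 ± 0.06 (limma's 95% interval -0.13 to 0.16, adjusted p = 0.927) and -0.02 ± 0.06 (interval -0.16 to 0.13, adjusted p = 0.927). Platelet and megakaryocyte markers, 5 of them measured, had none called by limma and 1 at an unadjusted p under 0.05 in each comparison. Of all probe sets 20.3% (NEMO knockout) and 21% (labelled double knockout) were under it against wild type, and 7.46% between the knockout groups. The summed linear signal of these markers was 479.0 to 500.5 in wild type, 537.1 to 565.5 in the NEMO knockout and 535.6 to 641.7 in the labelled double knockout. Their part in the Vwf signal was not tested.

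Kdr, the principal VEGF receptor, read 9.20, 9.11 and 9.19 in wild type, 8.93, 9.11 and 9.08 in the NEMO knockout, and 9.10, 8.90 and 9.10 in the labelled double knockout. Both knockout groups lay below wild type without overlap, as 11.8% and 13.5% of all probe sets did, but replicate 2 of wild type and of the NEMO knockout were equal to 2 decimals. The differences of -0.13 ± 0.08 (limma's 95% interval -0.31 to 0.05, adjusted p = 0.429) and -0.13 ± 0.08 (interval -0.31 to 0.05, adjusted p = 0.413) did not pass. Tek, the angiopoietin receptor Tie2, read 8.23, 8.38 and 8.46 in wild type, 8.31, 8.48 and 8.37 in the NEMO knockout, and 8.38, 8.25 and 8.33 in the labelled double knockout. Its groups overlapped, at 0.03 ± 0.08 (interval -0.14 to 0.21, limma adjusted p = 0.858) and -0.04 ± 0.08 (interval -0.21 to 0.14, limma adjusted p = 0.878) from wild type.

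For 7 of the 10 genes (Stab1, Stab2, Clec4g, Fcgr2b, Vwf, Kdr and Tek), each on its brightest probe set, the 95% intervals of all 3 comparisons lay within -0.31 and 0.39 (log2). That range was chosen for description after the values were seen. Changes beyond 1.31-fold upward or 1.24-fold downward are outside those intervals, each of which covers 1 gene in 1 comparison. The dimmer Clec4g probe set reached past that range, with an interval of -0.36 to -0.011 for the labelled double knockout against wild type. These are levels in whole liver, where fewer cells of a type and less RNA per cell cannot be told apart.

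**Figure D3:**
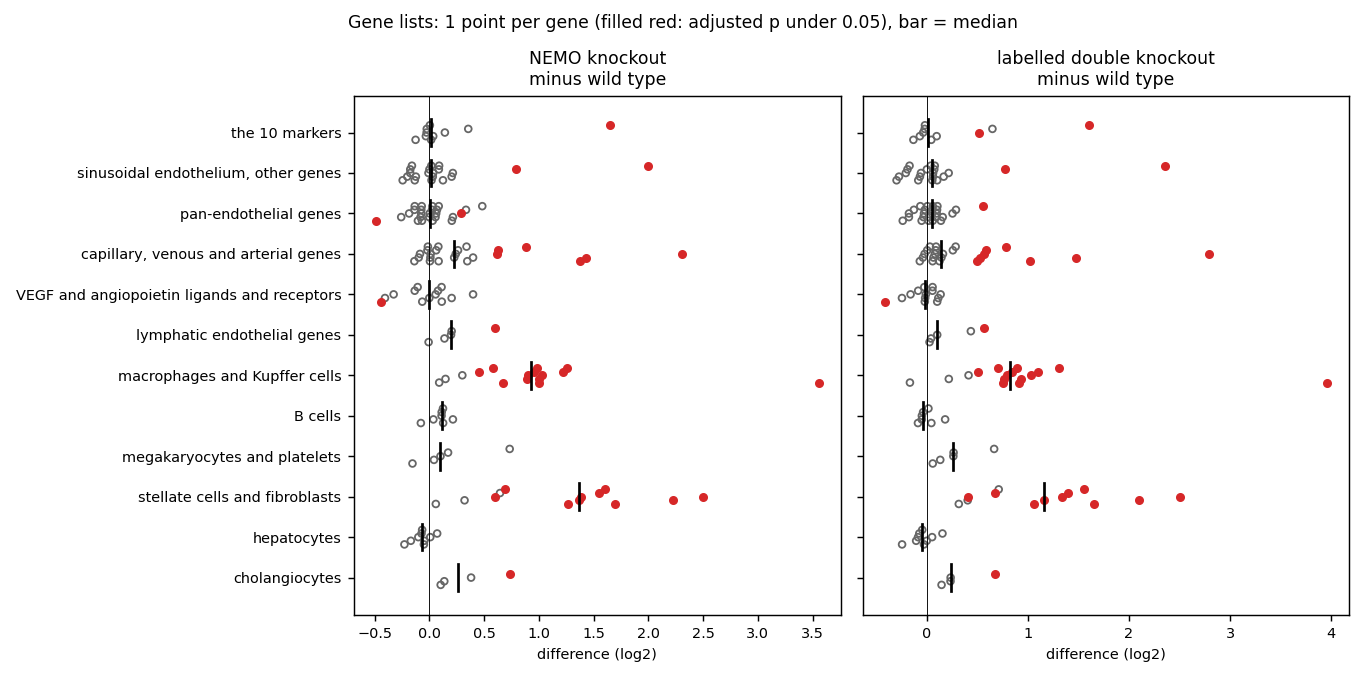
Differences from wild type (log2) for the 10 markers and for each gene list, 1 point per gene, with the NEMO knockout on the left and the labelled double knockout on the right; bars are medians, filled red points passed the adjusted test, and vertical offsets within a list only separate points. The medians of the sinusoidal, pan-endothelial and VEGF lists lie between -0.016 and 0.05, and those of the capillary and lymphatic lists between 0.10 and 0.23. Those of macrophages and of stellate cells and fibroblasts lie between 0.82 and 1.36.

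Other endothelial genes were read from lists chosen, like the 10 markers, with earlier results of these data known. Against wild type 7.68% of all probe sets were called in the NEMO knockout, 5.66% higher and 2.02% lower. In the labelled double knockout 9.32% were called, 5.81% higher and 3.51% lower. Of 25 pan-endothelial genes 1 was called higher and 1 lower in the NEMO knockout, with a median difference of 0.0019 and a range of -0.49 to 0.48 (log2). Endoglin, Eng, a co-receptor of the TGF-β family, was 0.29 ± 0.07 higher (limma adjusted p = 0.0382), and S1pr1, the sphingosine-1-phosphate receptor that stabilises vessels, was -0.49 ± 0.10 (limma adjusted p = 0.0179). In the labelled double knockout Cd93, a lectin-like endothelial receptor, was the only one called, at 0.56 ± 0.14 (limma adjusted p = 0.0331), with a list median of 0.05. Cd93 also held the upper end of the NEMO knockout range, at 0.48, without a call. Each of these 3 calls ended without at least 1 array. Eng lost its call without any of the 6 wild type and NEMO knockout arrays or labelled double knockout replicate 3 (limma adjusted p = 0.0527 to 0.131). S1pr1 lost it without replicate 1 or 2 of wild type, or 1 or 3 of the NEMO knockout (0.0510 to 0.0725), and Cd93 without any wild type or labelled double knockout array (0.0677 to 0.117). With arrays centred on their medians Eng and Cd93 were not called either (limma adjusted p = 0.0935 and 0.0632). The Cd34 difference of 1.65 lay above the range of this list. Pecam1 (CD31) and Cdh5 (VE-cadherin), named here outside the naming rule as common reference genes of endothelium, were at 0.21 ± 0.11 (limma adjusted p = 0.311) and 0.06 ± 0.08 (limma adjusted p = 0.761) in the NEMO knockout.

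Among 20 further genes of sinusoidal endothelium 2 were called higher and none lower in each knockout group, with medians of 0.018 and 0.05. They were Cd36, a fatty acid and thrombospondin receptor, at 2.001 ± 0.10 and 2.35 ± 0.10 (limma adjusted p = 6.46e-05 and 1.38e-05), and Lgmn, a lysosomal protease, at 0.79 ± 0.11 and 0.77 ± 0.11 (limma adjusted p = 0.00208 and 0.00204). Macrophages carry both genes as well, and the part of macrophages or of any other cell type in these rises was not tested. The other 18 were not called. Of 13 VEGF and angiopoietin ligands and receptors Vegfa, the ligand of Kdr, was the only one called. It fell by 0.44 in the NEMO knockout, from 10.47 ± 0.04 to 10.03 ± 0.11 (SE 0.08, limma adjusted p = 0.00785), and by 0.42 in the labelled double knockout, to 10.05 ± 0.09 (limma adjusted p = 0.00910). The list median was -0.0014 and -0.016.

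Capillary, venous and arterial genes, a list that also held vessel basement membrane components, had 23 genes measured, of which the NEMO knockout had 6 called higher, the labelled double knockout had 8, and neither had any called lower. Their medians were 0.23 and 0.14, and 5.66% and 5.81% of all probe sets were called higher in the same comparisons. The adhesion molecule Vcam1 was at 2.30 ± 0.23 and 2.80 ± 0.23 (limma adjusted p = 0.000577 and 0.000198), and the basement membrane glycoprotein Nid1 (nidogen-1) at 1.43 ± 0.12 and 1.47 ± 0.12 (limma adjusted p = 0.000250 and 0.000176). The cell types behind these rises were not tested. The netrin receptor Unc5b was at 1.37 ± 0.17 and 1.02 ± 0.17 (limma adjusted p = 0.00130 and 0.00493), and the Notch target Hey1 at 0.88 ± 0.07 and 0.78 ± 0.07 (limma adjusted p = 0.000250 and 0.000298). The remaining calls, named after their values were seen, were the collagen IV chains Col4a1 and Col4a2 in both groups, by 0.62 ± 0.07 and 0.62 ± 0.08 in the NEMO knockout, and Notch1 (0.50 ± 0.09) and Gja4 (0.58 ± 0.14) in the labelled double knockout. Notch1 and Gja4 were not called in the NEMO knockout. All its arrays still lay above wild type for both, as for 11.4% of all probe sets (Notch1 9.41 to 9.74 against 9.13 to 9.24, Gja4 7.59 to 7.66 against 7.02 to 7.53). Gja4 lost its call without replicate 1 or 3 of wild type or of the labelled double knockout (limma adjusted p = 0.0817 to 0.0981). Of 5 lymphatic genes Reln was called, at 0.60 ± 0.11 and 0.57 ± 0.11 (limma adjusted p = 0.00899 and 0.0102); stellate cells make reelin too. Between the knockout groups no gene of these 5 endothelial lists passed the limma test, with 4 of 20, 2 of 25, 1 of 23, 1 of 13 and 0 of 5 at an unadjusted p under 0.05 for sinusoidal, pan-endothelial, capillary, VEGF and lymphatic genes, beside 7.46% of all probe sets.

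Markers of stellate cells and fibroblasts moved with Cd34 and with the basement membrane genes, which those cells make as well. Of 13 markers 10 were called higher in each knockout group and none lower, with medians of 1.36 and 1.16. Of all probe sets 5.66% and 5.81% were called higher. Lum, Dpt, Col1a1 and Col1a2, 4 matrix genes, were at 2.50 ± 0.16, 2.23 ± 0.13, 1.69 ± 0.10 and 1.60 ± 0.09 in the NEMO knockout (limma adjusted p = 0.000117, 0.000106, 0.000106 and 0.000106). The summed linear signal of the list ran from 6694 to 7254 in wild type, 12730 to 14850 in the NEMO knockout and 12760 to 13260 in the labelled double knockout. Its part in the rise of Cd34 was not tested. Macrophage markers moved too, led by Gpnmb (3.56 ± 0.15), Ccr2 (1.26 ± 0.15), Cd68 (1.22 ± 0.12) and Marco (1.03 ± 0.21) in the NEMO knockout, the last of which lost its call without wild type replicate 1 or 3 (limma adjusted p = 0.0673 and 0.0718). In the labelled double knockout they were led by Gpnmb (3.96 ± 0.15), Cd68 (1.31 ± 0.12), Ccr2 (1.10 ± 0.15) and C1qc (1.03 ± 0.10). None of 9 hepatocyte markers was called by limma, with 1 and 2 at an unadjusted p under 0.05 against wild type, beside 20.3% and 21% of all probe sets. Of 4 cholangiocyte markers Epcam was called in both groups (0.74 ± 0.17 and 0.68 ± 0.17), and without any of the 3 wild type or 3 NEMO knockout arrays it was not (limma adjusted p = 0.0595 to 0.113 and 0.0569 to 0.130). After median centring or cyclic loess Epcam was not called in the labelled double knockout (limma adjusted p = 0.0534 and 0.0504).

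The genes nearest to each called marker were taken by the root mean square difference of values centred over the 9 arrays, among 17093 genes, leaving out small RNAs, Riken clones, predicted genes and chemosensory (olfactory and vomeronasal) receptors. For Cd34 they were Glipr1 (0.13 log2), the matrix protein gene Ccdc80 (0.14) and Col1a1, a chain of type I collagen (0.16), beside a root mean square of 0.80 for Cd34 itself. In the NEMO knockout Glipr1 stood 1.64 ± 0.16, Ccdc80 1.59 ± 0.11 and Col1a1 1.69 ± 0.10 above wild type. All 3 shared with Cd34 their lowest values in wild type and their highest in NEMO knockout replicate 3. They were picked for likeness to Cd34 over these arrays, so the shared pattern is no separate result. For Plvap the nearest were Adam23 (0.10 log2), Plek2 (0.10) and the chemokine gene Ccl9 (0.10), beside 0.25 for Plvap itself. In the labelled double knockout Adam23 stood 0.54 ± 0.11, Plek2 0.47 ± 0.09 and Ccl9 0.40 ± 0.12 above wild type, the last without a call (limma adjusted p = 0.0749). None of the 6 is on the endothelial lists, but these hold few of the 17093 genes, so that tells nothing of their cell source. Col1a1 is on the list of stellate cells and fibroblasts.

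**Figure D4:**
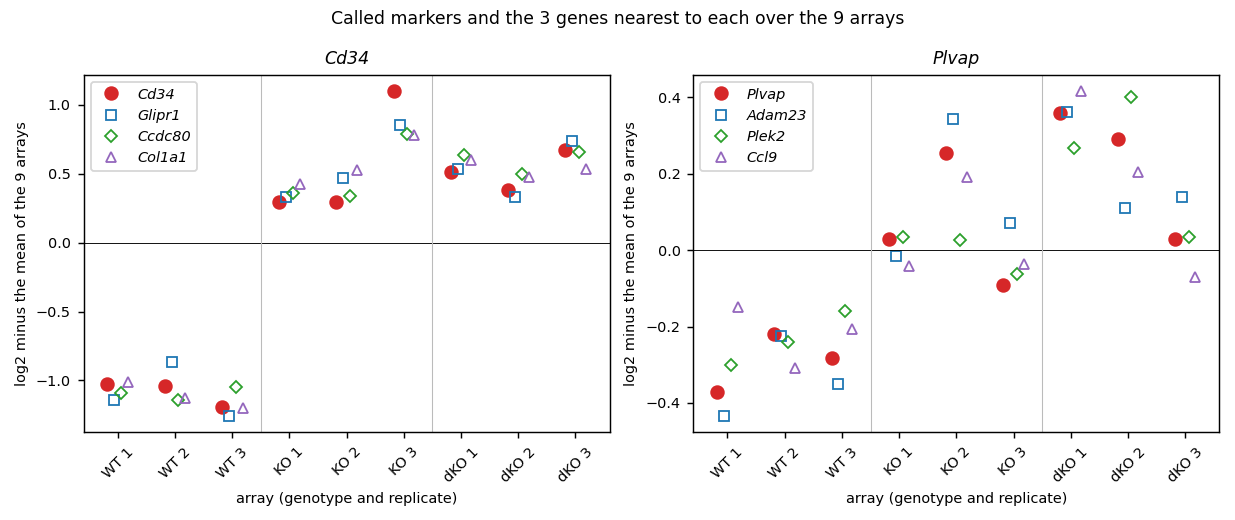
Log2 values of Cd34 (left) and Plvap (right) and of the 3 genes nearest to each, every gene centred on its mean over the 9 arrays; the horizontal axis gives the 9 arrays by genotype (WT wild type, KO NEMO knockout, dKO labelled double knockout) and replicate number, whose order has no meaning. Cd34, Glipr1, Ccdc80 and Col1a1 lie below 0 in all wild type arrays and above 0 in all knockout arrays, and the last 3 were picked for that likeness.

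Array medians (log2) were 6.47 to 6.48 in wild type, 6.52 to 6.58 in the NEMO knockout and 6.53 to 6.55 in the labelled double knockout. Every knockout median was thus above every wild type median. Arrays of 1 group correlated at 0.994 to 0.996 across probe sets, which are no replicates. NEMO knockout replicate 1 had the lowest array weight, 0.412. The number of called probe sets in the NEMO knockout was 2222, and 1382 without NEMO knockout replicate 3. After each array was centred on its median, the median over all probe sets for the NEMO knockout against wild type was -0.10 in place of -0.04, and its calls split into 1304 higher and 1169 lower, where the deposited values gave 1638 and 584. For the labelled double knockout against wild type 2696 probe sets were called, and 1601 without its replicate 3. Centring took the median over all probe sets there from -0.03 to -0.09, and the split was 1309 and 1661 after it and 1680 and 1016 before. Between the knockout groups it was 17 and 14 after centring and 25 and 32 before. The labels describe the samples as separate only through different identifiers, so p-values measure the spread between these samples, and 3 arrays per group limit the precision.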

How the data were processed

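Affymetrix gene arrays of 9 livers gave the values. The authors deposited a log2 value for every probe set on every array, computed with RMA per the submitters' processing notes. That the scale is log2 follows from RMA and the range of the values. Its version, the array build and any filter: not given in the sources used here. In general, this method corrects background, equalises array distributions and summarises probes by median polish. It pulls arrays toward 1 distribution, so a general change in RNA content would not be seen, and compresses small differences of dim probe sets.

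Of 35556 probe sets, 6617 with identifiers below the first annotated one were taken as controls and left out. Of the 28939 tested, 21789 have 1 gene symbol, and 21698 of these matched the gene table of GRCm38.p6, used for names only. Groups were compared by lmFit and eBayes of limma (version 3.58.1, under R 4.3.3), with 1 mean per group over all 9 arrays, 2-sided, with Benjamini-Hochberg adjustment over all tested probe sets and calls under 0.05. On simulated data for the NEMO knockout against wild type, with 28939 probe sets, the fit recovered 40 of 67 changes of 0.5, 66 of 67 of 1 and 66 of 66 of 2 (log2), and made 5 false calls. In the simulation of the labelled double knockout against wild type it recovered 38 of 67, 64 of 67 and 66 of 66, and made 17 false calls. The simulated noise was independent between arrays, and far fewer probe sets were changed than were called in the data. These rates therefore check the fit and are not the power of the real comparisons. All 10 genes lie above the dimmest 25% of probe sets.

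The members and lists were chosen with earlier results of these data known. From each list the called genes with the largest difference are named, up to 4 per direction and comparison; genes named otherwise are marked. Alternatives were other normalisations, a filter on dim probe sets, an intensity trend, array weights, 2-group fits, a replicate block, each array left out, a threshold of 0.10 and averaged probe sets.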

Additional observations from a re-analysis of the deposited data

How the results depend on the processing

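The Cd34 calls against wild type held under all 18 alternatives. Of the 30 marker differences none that was called reversed: the 55 reversals had sizes up to 0.23 (log2) and limma adjusted p of 0.615 or more, and the cause was not tested. In the following, K is the NEMO knockout against wild type, D the labelled double knockout against wild type and B the comparison between both knockout groups, and values are log2 differences. Quantile normalisation gave Vwf -0.040 (K), Kdr 0.019 (B) and Stab1 0.0025 (D). Median centring gave Clec4g -0.059, Vwf -0.047 and Tek -0.028 (K), and Clec4g -0.020 (D). Cyclic loess gave Stab1 0.0099, Stab2 0.012 and Lyve1 0.00070 (K), Kdr 0.015 (B), and Stab1 0.032, Vwf 0.0096 and Tek 0.013 (D). Array weights gave Stab1 0.023, Stab2 0.033, Lyve1 0.014, Clec4g -0.041 and Vwf -0.0044 (K), and Stab1 -0.044 (B). Averaging both Clec4g probe sets gave -0.021 (K), -0.050 (B) and -0.070 (D).

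Probe sets called in B numbered 57, beside 31 after median centring, 23 with only the 2 groups compared and 108 at an adjusted p under 0.10, where 2 markers were called in K. Leaving out each array in turn gave 1382 to 2335 calls in K, 10 to 44 in B and 1601 to 2720 in D, and 1 to 2 markers called in D. Fewer arrays enter each of these fits. In K the ranges were -0.086 to 0.033 for Stab1, -0.095 to 0.037 for Stab2, -0.18 to 0.18 for Lyve1, -0.052 to 0.046 for Clec4g, 0.043 to 0.19 for Fcgr2b, 1.38 to 1.78 for Cd34, 0.26 to 0.43 for Plvap, -0.026 to 0.050 for Vwf, -0.16 to -0.070 for Kdr and -0.029 to 0.085 for Tek. In B they were -0.054 to 0.066 for Stab1, -0.11 to 0.026 for Stab2, 0.54 to 0.92 for Lyve1, -0.021 to 0.14 for Clec4g, -0.15 to 0.054 for Fcgr2b, -0.18 to 0.23 for Cd34, 0.085 to 0.26 for Plvap, -0.068 to 0.0080 for Vwf, -0.062 to 0.061 for Kdr and -0.11 to -0.024 for Tek. In D they were -0.077 to 0.033 for Stab1, -0.098 to -0.019 for Stab2, 0.50 to 0.89 for Lyve1, -0.017 to 0.14 for Clec4g, -0.0095 to 0.16 for Fcgr2b, 1.53 to 1.68 for Cd34, 0.45 to 0.62 for Plvap, -0.039 to 0.016 for Vwf, -0.17 to -0.066 for Kdr and -0.099 to 0.015 for Tek.

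The labels link same-numbered arrays by the number only, and whether they share a batch is not known here. Their deviations from the group means correlated at -0.12 to 0.39, with 3 of 9 pairs above 0.1. Among arrays of the other groups, 6 of 9 arrays correlated best with one of their own number. With the replicate number as a block, 18 probe sets were called in B. No marker call changed under the block, while Eng in K and Gja4 in D were not called (limma adjusted p = 0.0511 and 0.0518). With only the 2 groups compared, Eng and Marco in K and Gja4 and Epcam in D were not called (limma adjusted p = 0.0610, 0.0539, 0.0784 and 0.101). Signal over background was not analysed here, and array number limits small differences.

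Over the 18 alternatives the genes called per list, in either direction, ranged widely only in short counts. In K they ran from 2 to 3 for other sinusoidal genes, 0 to 4 for pan-endothelial genes, 6 to 9 for capillary genes, 1 to 2 for VEGF genes, and 0 to 1 each for megakaryocyte, hepatocyte and cholangiocyte markers. In D they ran from 2 to 5 for other sinusoidal genes (5 with array weights), 0 to 2 for pan-endothelial genes, 7 to 9 for capillary genes, 0 to 2 for hepatocyte markers, and 0 to 1 each for megakaryocyte and cholangiocyte markers. Macrophage counts stayed at 11 to 14 and stellate counts at 9 to 11, and in B no gene of any list was called.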
